A study of Mus musculus with 25 samples.

Results

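The 9 genes described here encode transcription factors of the pancreatic beta cell, the insulin-producing cell of the islet: Mafa, Pdx1, Nkx6-1, Nkx2-2, Neurod1, Pax6, Isl1, Foxa2 and Rfx6. They were taken from the tables by gene symbol, and all 9 were found in each of 4 deposited tables of 12822 to 17549 genes. In GRCm38.p6 Mafa lies at chr15:75745501-75748321, Pdx1 at chr5:147270097-147275848, Nkx6-1 at chr5:101659184-101664711, Nkx2-2 at chr2:147176485-147195434 and Neurod1 at chr2:79452637-79456636. Pax6 lies at chr2:105668896-105698410, Isl1 at chr13:116298270-116309688, Foxa2 at chr2:148042877-148046969 and Rfx6 at chr10:51677760-51730429. Islet messenger RNA was sequenced in a study of BAF60C, a subunit of SWI/SNF chromatin remodelling complexes encoded by Smarcd3, in type 2 diabetes. Of 25 labelled mouse samples in 10 groups, 19 in 8 groups had expression values, and every sample was a pool of islets from 3 or more mice. The groups were BcBKO on a high-fat diet (HFD) against flox/flox on HFD, KO_REG3B-Fc and KO_PBS against CTR_PBS, db_REG3B against db_GFP (2 libraries each), and WT (5 libraries).

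Both HFD groups were on the diet for 3 months. BcBKO stands in the labels for a beta-cell-specific ablation made with Pdx1-cre. The Pdx1 promoter is also active in embryonic pancreatic progenitors, which limits such a line as a beta cell model. Which gene KO refers to, what db and GFP stand for in these groups, the route and dose of PBS, REG3B-Fc and REG3B, and the age and strain of the mice are not stated in the labels. Reg3b encodes REG3B, a lectin that cells secrete. The chow samples of both genotypes were not analysed here. Since the labels do not say that pools were made from separate mice, p-values measure the spread between these libraries, which may be technical.

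Beta cells are specified and maintained by a network of DNA-binding factors that bind together at the promoters of insulin and of glucose-sensing genes. In mice, MAFA is largely restricted to mature beta cells and appears late in their maturation. PDX1 and NKX6-1 are enriched in beta cells, with PDX1 also in delta cells. NKX2-2, NEUROD1, PAX6, ISL1, FOXA2 and RFX6 are made by other islet endocrine cells as well and are called pan-endocrine factors here.

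The promoters of 4 genes known as targets of these factors are shown because the genes return in the comparisons: the insulin gene Ins1, the glucose transporter gene Slc2a2, the glucose-6-phosphatase gene G6pc2 and Ucn3, which encodes a peptide of mature beta cells. Each run is the 250 bases before the gene's start from RefSeq on GRCm38.p6, 5′ to 3′ on the gene's strand, at chr19:52264047-52264296 (plus strand, Ins1), chr3:28697653-28697902 (plus, Slc2a2), chr2:69210823-69211072 (plus, G6pc2) and chr13:3945350-3945599 (minus, Ucn3). Capitals mark TAAT or ATTA, the core read by homeodomain factors such as PDX1, NKX6-1 and ISL1, CATCTG or CAGATG, an E box of the kind read by NEUROD1, and TCAGC or GCTGA, the core of a Maf site, searched on both strands.
Ins1: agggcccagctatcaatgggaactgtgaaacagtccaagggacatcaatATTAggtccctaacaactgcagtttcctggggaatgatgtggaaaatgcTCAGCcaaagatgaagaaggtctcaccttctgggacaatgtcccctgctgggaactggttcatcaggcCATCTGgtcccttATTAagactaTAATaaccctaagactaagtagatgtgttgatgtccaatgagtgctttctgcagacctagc
Slc2a2: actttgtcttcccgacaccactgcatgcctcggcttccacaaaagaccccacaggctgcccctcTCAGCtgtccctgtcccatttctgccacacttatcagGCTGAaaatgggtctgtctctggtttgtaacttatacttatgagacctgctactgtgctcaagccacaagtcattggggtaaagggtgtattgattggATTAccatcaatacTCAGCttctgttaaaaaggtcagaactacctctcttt
G6pc2: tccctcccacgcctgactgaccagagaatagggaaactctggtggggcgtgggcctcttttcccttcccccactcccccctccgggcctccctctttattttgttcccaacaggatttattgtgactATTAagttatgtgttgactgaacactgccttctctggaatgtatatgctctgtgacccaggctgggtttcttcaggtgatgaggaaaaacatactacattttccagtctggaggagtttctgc
Ucn3: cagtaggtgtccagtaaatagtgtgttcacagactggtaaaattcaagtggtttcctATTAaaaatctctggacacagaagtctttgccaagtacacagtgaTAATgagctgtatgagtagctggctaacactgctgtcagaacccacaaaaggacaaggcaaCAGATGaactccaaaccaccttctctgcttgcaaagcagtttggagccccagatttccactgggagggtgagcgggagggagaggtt
The Ins1 window held 3 homeodomain cores, 1 E box and 1 Maf core. Slc2a2 held 1 homeodomain core and 3 Maf cores, G6pc2 held 1 homeodomain core, and Ucn3 held 2 homeodomain cores and 1 E box. Of 32851 mouse promoter windows of this length, 54.9% held the homeodomain core, 14.4% the E box and 46.8% the Maf core, so a match is common and describes letters, not binding.

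Values are FPKM, read fragments corrected for transcript length and library size, which allow levels to be compared between genes of one table, while the 4 tables are not compared in level. All 9 factors were well expressed: their group means stood above those of 72.6% (Rfx6, db_REG3B) to 98.8% (Mafa, db_REG3B) of the genes with at least 1 FPKM in that group. Counts were not analysed here, so the depth behind each value is unknown. Changes are log2 differences of log2(FPKM + 1), the group named first minus the other, after each library was divided by its median ratio to the geometric mean library of its table. They are tested with limma across all genes and adjusted by Benjamini-Hochberg, with a call at adjusted p under 0.05. The beta cell check list (Ins1, Ins2, Iapp, Slc2a2, Ucn3, G6pc2) was at 1 FPKM or more in full in all 19 libraries and took 28.6 to 71.7% of the summed FPKM. Smarcd3 itself did not follow the BcBKO label, at 3.11 and 2.40 FPKM in libraries labelled BcBKO and 2.57 and 2.55 FPKM in flox/flox libraries (log2 change 0.00, limma adjusted p = 1.00). It read 0.750 and 1.09 FPKM in KO_PBS, against 1.03 and 1.15 FPKM in CTR_PBS (0.14 after median scaling, limma adjusted p = 0.284). In db_REG3B Smarcd3 was called lower, at 1.29 and 1.61 FPKM, against 3.18 and 2.61 FPKM in db_GFP (-0.62, limma adjusted p = 0.00225). Whether the deposited values include the deleted part of the gene is not given in the sources used here. Reg3b messenger RNA was lower in both groups labelled with REG3B, and the labels do not say whether REG3B was supplied as a gene or as a protein. It had 304 and 312 FPKM in KO_REG3B-Fc, 1227 and 1181 FPKM in KO_PBS, with CTR_PBS at 667 and 634 FPKM (log2 change -2.60 against KO_PBS, limma adjusted p = 9.89e-09), and 10.4 and 9.98 FPKM in db_REG3B, against 21.8 and 26.5 FPKM in db_GFP (-1.09, limma adjusted p = 5.02e-05). On HFD it had 33.8 and 21.3 FPKM in libraries labelled BcBKO and 77.7 and 78.0 FPKM in flox/flox (-1.59, limma adjusted p = 1.00).

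**Figure D1:**
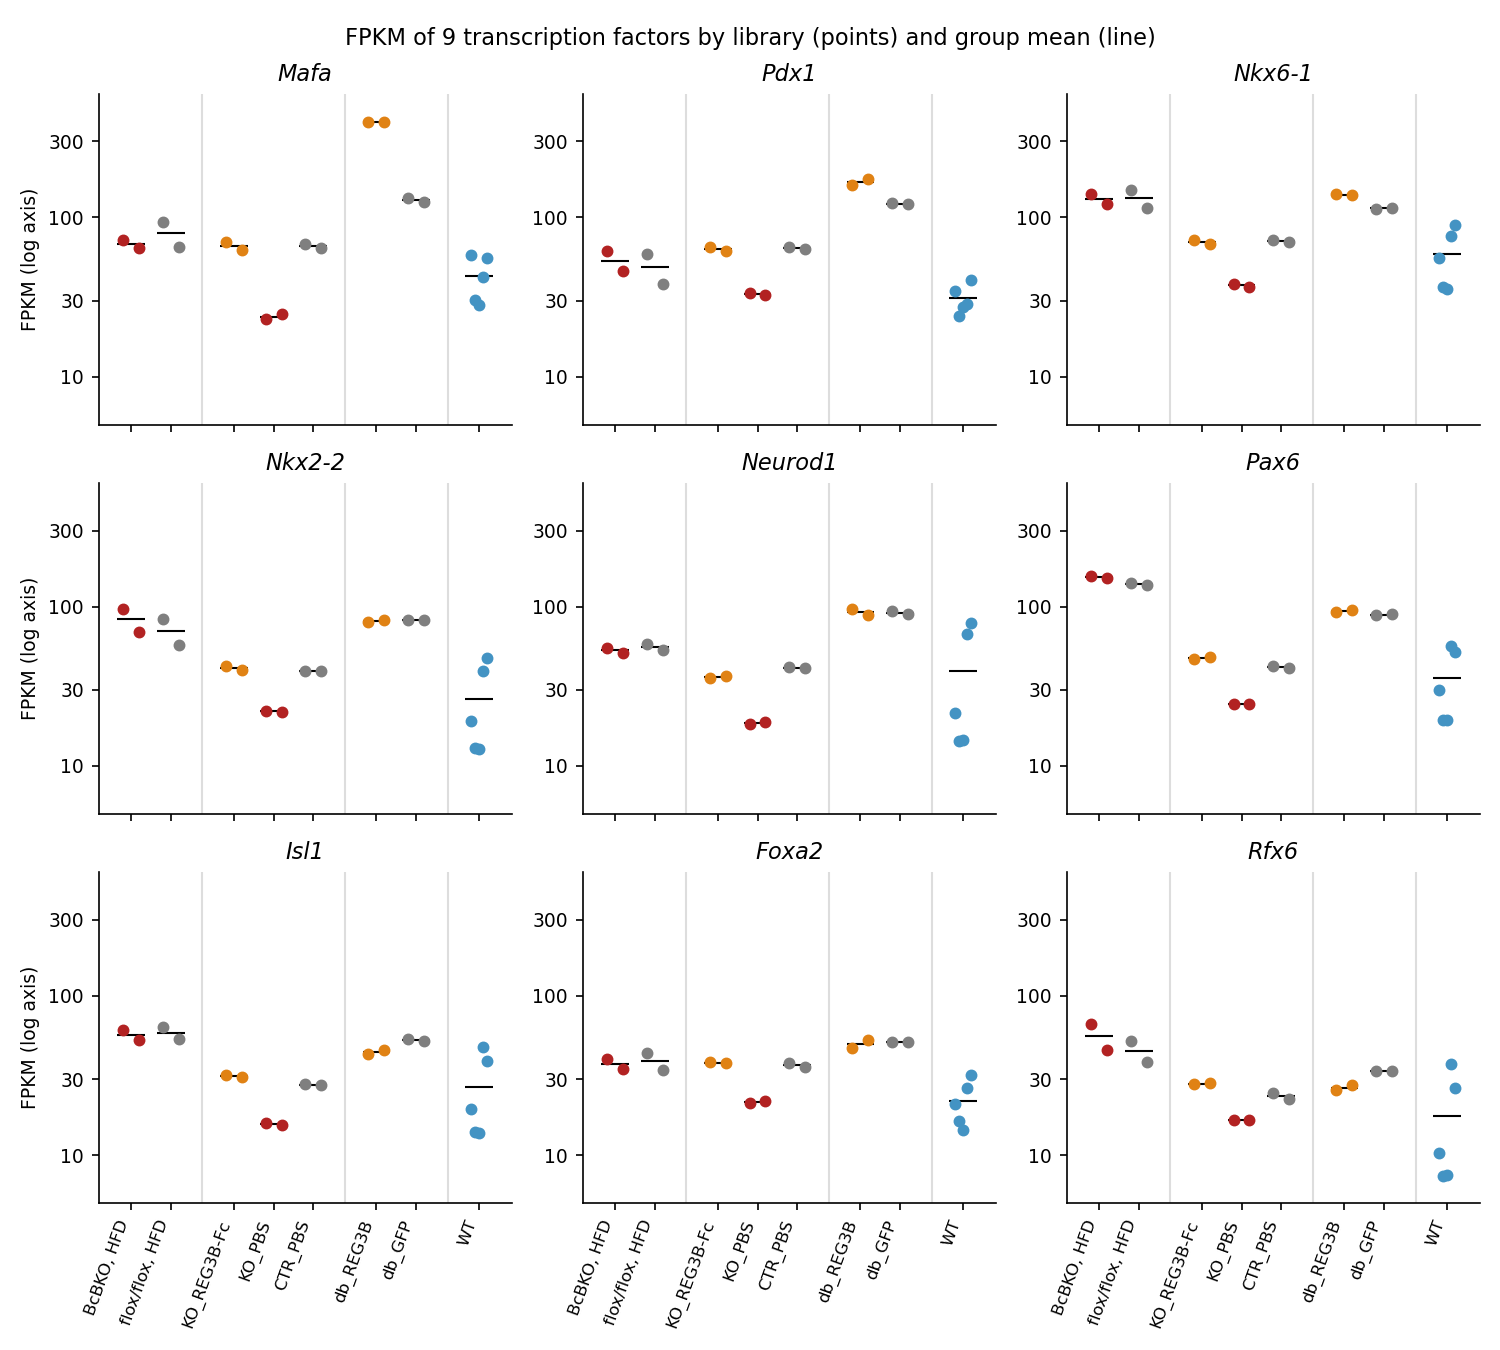
FPKM (log axis) of the 9 factors in every library, one panel a gene, with points for libraries and a black line for each group mean; grey lines separate the 4 tables. Mafa has the widest gap between db_REG3B (395 and 399.9 FPKM) and db_GFP (133 and 126 FPKM). On the deposited scale plotted here, Nkx2-2, Neurod1, Pax6 and Foxa2 change by -0.02, 0.02, 0.07 and -0.05 log2 units in that comparison. Isl1 changes by -0.25 and Rfx6 by -0.33.

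The order of the factors by FPKM was read within each table. In the PBS table Nkx6-1 was highest in all groups, at 70.2 ± 3.15 FPKM in KO_REG3B-Fc, 37.5 ± 1.31 FPKM in KO_PBS and 71.1 ± 0.926 FPKM in CTR_PBS (SD, n = 2 each). Mafa came next in KO_REG3B-Fc (66.6 ± 5.52 FPKM) and CTR_PBS (66.0 ± 3.03 FPKM), where its libraries overlapped those of Pdx1, but in KO_PBS (23.9 ± 1.32 FPKM) it lay below Pdx1 (33.1 ± 0.728 FPKM) and overlapped Pax6. In KO_REG3B-Fc the Mafa libraries overlapped those of Nkx6-1 too. Rfx6 was lowest in KO_REG3B-Fc and CTR_PBS, and Isl1 in KO_PBS. In the db table Mafa was highest in db_REG3B (398 ± 3.37 FPKM) and in db_GFP (129 ± 5.16 FPKM), above Pdx1 without overlap, and Rfx6 was lowest in both. On HFD Pax6 was highest, at 153 ± 3.34 FPKM in libraries labelled BcBKO and 139 ± 3.59 FPKM in flox/flox, where it overlapped Nkx6-1, and Foxa2 was lowest by mean in both.

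KO_PBS islets had less Mafa than CTR_PBS islets, and 7 other factors were lower by smaller amounts. Mafa, which drives insulin transcription in mature beta cells, had 22.9 and 24.8 FPKM in KO_PBS, against 68.2 and 63.9 FPKM in CTR_PBS. The groups lay far apart, and the mean was 0.361 of that in CTR_PBS on the deposited scale. Relative to the median gene Mafa fell by 0.92 (SE 0.06, limma adjusted p = 7.61e-06).

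Pdx1, the factor of pancreas formation and of insulin transcription, had 33.6 and 32.6 FPKM in KO_PBS, against 65.1 and 63.2 FPKM in CTR_PBS. Nkx6-1, a repressor that keeps beta cells from other islet fates, had 38.5 and 36.6 FPKM in KO_PBS, against 71.7 and 70.4 FPKM in CTR_PBS. Neither pair of groups overlapped, and on the median scale 36.1% of all genes were lower without overlap and 36.7% higher. The changes were close to each other at -0.42 for Pdx1 and -0.39 for Nkx6-1 (limma adjusted p = 3.96e-05 and 8.58e-05).

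Among the pan-endocrine factors Neurod1, the basic helix-loop-helix factor of insulin and islet genes, had the largest change. It had 18.4 and 18.8 FPKM in KO_PBS, against 41.7 and 40.9 FPKM in CTR_PBS, and fell by 0.60 (SE 0.04, limma adjusted p = 1.17e-05). Nkx2-2, a homeodomain factor of endocrine fate, had 22.3 and 21.8 FPKM in KO_PBS, against 39.4 and 39.6 FPKM in CTR_PBS (-0.31). Isl1, a LIM-homeodomain factor, changed by -0.28, Foxa2, a forkhead factor that opens chromatin, by -0.24, and Pax6, a paired-box factor of islet hormone genes, by -0.23. The limma adjusted p-values of these 4 ran from 0.000344 (Nkx2-2) to 0.00283 (Foxa2). Rfx6, a winged-helix factor of endocrine differentiation, had 16.6 and 16.6 FPKM in KO_PBS, against 24.6 and 22.5 FPKM in CTR_PBS. Its change relative to the median gene was 0.03 (limma adjusted p = 0.677).

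In this comparison 8 of 9 factors were called lower and 0 higher, against 20.0% of 11789 genes lower and 24.6% higher. The scale matters here: in the deposited FPKM the median gene was lower in KO_PBS by 0.44 on the log2 scale, 81.5% of genes were called lower and 8.66% higher, and all 9 factors were lower, Rfx6 included (-0.48). In the authors' deposited table of this comparison 8 of the 9 were lower at adjusted p under 0.05, as were 11.2% of its genes, with Mafa at -0.98.

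The acinar check list of 10 digestive enzyme genes, all 10 at 1 FPKM or more in every library, took 31.7 and 32.8% of all summed FPKM in KO_PBS libraries, against 15.6 and 15.5% in CTR_PBS. The beta cell list took 40.9 and 40.2% in KO_PBS, against 60.4 and 61.3% in CTR_PBS. Immune markers took 0.0272 to 0.0276% in KO_PBS (6 of 7 at 1 FPKM or more) and 0.00825 to 0.00901% in CTR_PBS (4 of 7), with Cd3e at 0 in CTR_PBS replicate 1. Duct markers took 0.0142 to 0.0146% in KO_PBS and 0.0387 to 0.0417% in CTR_PBS (4 of 5 at 1 FPKM or more in each), and stellate markers 0.00323 to 0.00327% in KO_PBS and 0.00106 to 0.00107% in CTR_PBS. Their part in the lower factor levels was not tested. In whole islets, fewer beta cells and less of a messenger RNA per beta cell cannot be told apart.

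A ratio within a library does not depend on how the library is scaled, so Mafa was also set against the geometric mean of the 6 pan-endocrine factors. That mean was 19.6 and 19.6 FPKM in KO_PBS, against 34.9 and 33.8 FPKM in CTR_PBS. The ratio of Mafa to it was 1.17 and 1.27 in KO_PBS and 1.96 and 1.89 in CTR_PBS, without overlap. The log2 difference was -0.65, and the two-sided exact permutation p of 0.333 is the smallest that 2 against 2 libraries can give. With every library divided by this mean, limma across all genes put Mafa lower by 0.65 (SE 0.06, adjusted p = 2.16e-05), where 3.69% of all genes were called lower and 63.2% higher. Pdx1 was lower on that scale as well (-0.14, limma adjusted p = 0.0171), and Nkx6-1 was not called (-0.11, limma adjusted p = 0.0630). Within the 6 factors themselves Neurod1 lay below their mean (-0.33) and Rfx6 above it (0.30), both past the limma threshold. The error of the 6-gene mean is not counted in these p-values.

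**Figure D2:**
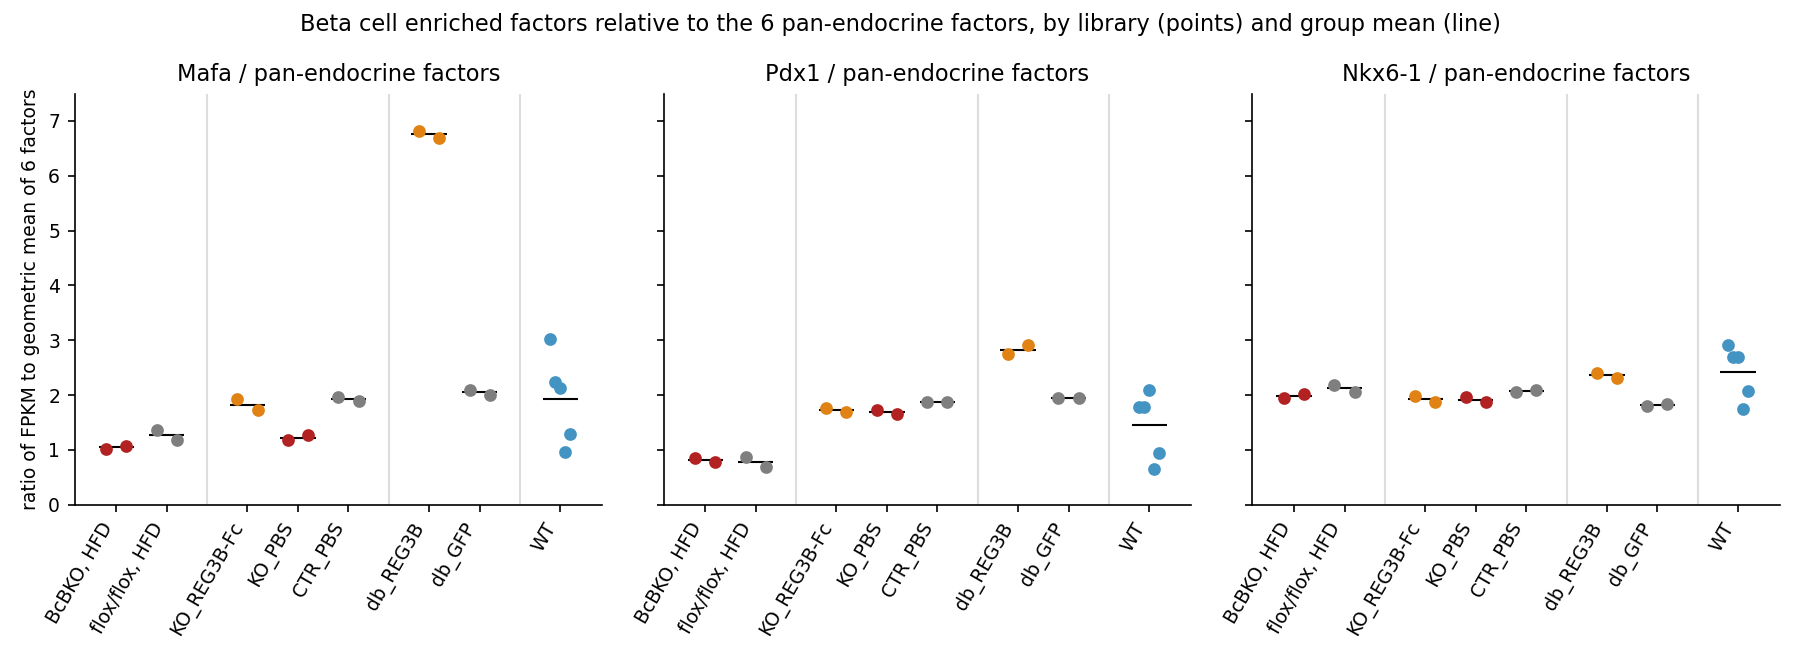
Ratio of the FPKM of Mafa, Pdx1 and Nkx6-1 (left to right) to the geometric mean FPKM of the 6 pan-endocrine factors, in each library (points) with the group mean (line). The Mafa ratio is 6.82 and 6.69 in db_REG3B, and 1.17 and 1.27 in KO_PBS, below both other groups of its table.

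Genes known as targets of these factors were mostly lower too. The part of the beta cell and acinar shares given above in these changes was not tested. All genes of the beta cell list are also among the known targets, so its share and their changes are not separate measures. Of 18 known targets of MAFA, PDX1 or NKX6-1, 14 fell, 0 rose and 4 did not pass, with a median change of -0.32 against 0.00 for all genes. On the same median scale 20.0% of all genes were called lower and 24.6% higher. Ucn3 had 90.5 and 87.0 FPKM in KO_PBS, against 245 and 243 FPKM in CTR_PBS (log2 change -0.92, limma adjusted p = 3.54e-07). G6pc2 had 843 and 775 FPKM in KO_PBS, against 2150.4 and 2019 FPKM in CTR_PBS (-0.84). The cation channel gene Trpm5 (-0.84) and the incretin receptor gene Glp1r (-0.47) fell too. Ins1 fell by 0.35, while Ins2 (-0.18, limma adjusted p = 0.107) and the amyloid peptide gene Iapp (-0.13, 0.0664) did not pass. On the deposited scale all 18 were called lower, as were 81.5% of all genes. Relative to the pan-endocrine factors 8 were lower and 3 higher, where 3.69% of all genes were lower and 63.2% higher.

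Of 20 tested other islet transcription factors, 10 were lower and 2 higher (median -0.21), where 20.0% of all genes were lower and 24.6% higher. With deposited FPKM 20 were lower and 0 higher, where 81.5% of all genes were lower. The 2 higher on the median scale were Hnf4a (0.30) and Foxa3 (0.20). The homeobox gene Mnx1 (-0.68) and the zinc-finger genes Insm1 (-0.60), Glis3 (-0.53) and Scrt1 (-0.51) had the largest falls. Of 5 tested factors of alpha, delta and PP cells 1 was higher and 0 lower, and with deposited FPKM 1 was higher and 4 lower. Hhex of delta cells was the one that rose, by 0.86. Of 12 progenitor, duct and acinar factors 9 rose and 0 fell (7 and 3 on the deposited scale), led by the acinar factors Rbpjl (1.61) and Ptf1a (1.12). Bhlha15 followed (1.03), with Myc at 0.81. Rbpjl had 33.8 and 31.1 FPKM in KO_PBS, against 15.2 and 14.0 FPKM in CTR_PBS. These rises stood in the same libraries as the higher acinar enzyme share and the lower duct marker share given above.

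KO_REG3B-Fc islets had more of 8 of these factors than KO_PBS islets, and Mafa had the largest change. The comparison uses the same KO_PBS libraries as the one above, so the values are set side by side and are not independent. Mafa had 70.5 and 62.7 FPKM in KO_REG3B-Fc, against 22.9 and 24.8 FPKM in KO_PBS, a ratio of means of 2.79. It rose by 0.83 relative to the median gene (SE 0.06, limma adjusted p = 1.48e-05).

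Pdx1 had 64.8 and 61.5 FPKM in KO_REG3B-Fc and 33.6 and 32.6 FPKM in KO_PBS (0.29). Nkx6-1 had 72.5 and 68.0 FPKM in KO_REG3B-Fc and 38.5 and 36.6 FPKM in KO_PBS (0.27). Neither gene's groups overlapped, and on the median scale 36.2% of all genes were higher without overlap and 36.4% lower. Isl1 had 31.8 and 30.9 FPKM in KO_REG3B-Fc and 15.8 and 15.5 FPKM in KO_PBS and rose by 0.35, the largest change after Mafa. Neurod1 and Pax6 rose by 0.32 each, Nkx2-2 by 0.26 and Foxa2 by 0.19 (limma adjusted p = 0.00902). Rfx6 had 27.9 and 28.2 FPKM in KO_REG3B-Fc, against 16.6 and 16.6 FPKM in KO_PBS, and was not called at 0.12 (limma adjusted p = 0.0727).

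So 8 of 9 factors were higher and 0 lower, where 20.2% of all genes were called higher and 24.7% lower. On the deposited scale the median gene was higher in KO_REG3B-Fc by 0.53, all 9 factors were called higher, and so were 86.2% of genes, with 6.97% lower. The authors' deposited table has 8 of the 9 higher, with 10.2% of its genes higher and Mafa at 0.87. The acinar list took 13.6 and 13.6% of the summed FPKM in KO_REG3B-Fc and 31.7 and 32.8% in KO_PBS, and the beta cell list 61.0 and 60.7% in KO_REG3B-Fc and 40.9 and 40.2% in KO_PBS. Their part in the higher factor levels was not tested.

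Mafa was also higher relative to the pan-endocrine factors. Its ratio to their geometric mean was 1.92 and 1.72 in KO_REG3B-Fc and 1.17 and 1.27 in KO_PBS (log2 difference 0.57, two-sided exact permutation p = 0.333, the smallest possible). On that scale Mafa rose by 0.57 (limma adjusted p = 5.17e-05, with 3.99% of all genes higher and 60.6% lower). Pdx1 (0.03, 95% interval -0.07 to 0.13) and Nkx6-1 (0.00, -0.10 to 0.11) were not called, and Rfx6 lay lower (-0.14, limma adjusted p = 0.0268).

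**Figure D3:**
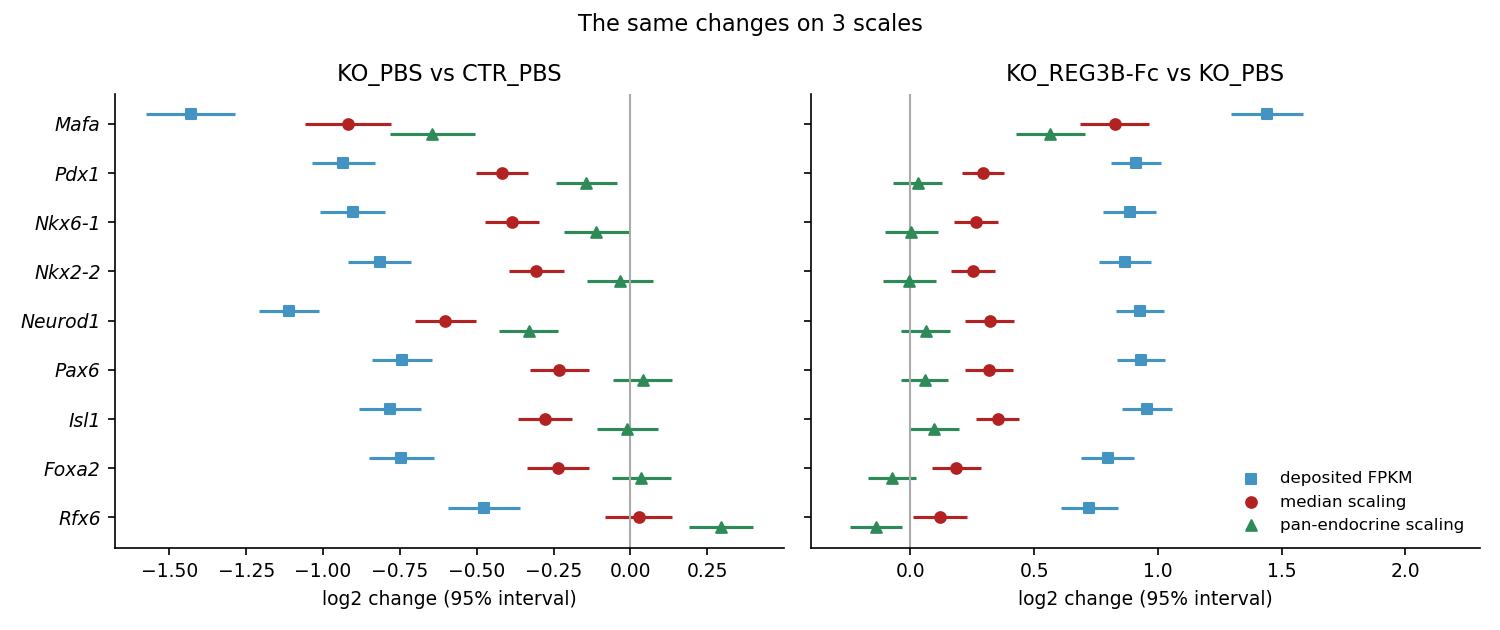
Log2 change with 95% interval of each factor on 3 scales (blue squares, deposited FPKM; red circles, after median scaling; green triangles, relative to the 6 pan-endocrine factors), for KO_PBS against CTR_PBS (left) and KO_REG3B-Fc against KO_PBS (right). Mafa lies at -1.43, -0.92 and -0.65 in KO_PBS against CTR_PBS on the 3 scales; the 6 pan-endocrine factors make up the mean of the third scale, so their green points are centred near 0 by construction.

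Of the 18 known targets 15 rose and 0 fell (median 0.32 against 0.00 for all genes), where 20.2% of all genes were called higher and 24.7% lower. Trpm5 rose by 1.03, the prolactin receptor gene Prlr by 0.71, Slc2a2 by 0.70 and Ucn3 by 0.68. Slc2a2 had 99.1 and 97.9 FPKM in KO_REG3B-Fc and 39.1 and 38.7 FPKM in KO_PBS (limma adjusted p = 1.64e-06). The 3 that did not pass were Ins1 (0.09), Ins2 (0.06) and Iapp (0.01), the most abundant of the list. On the deposited scale all 18 were called higher, as were 86.2% of all genes. Relative to the pan-endocrine factors 7 were higher and 1 lower, where 3.99% of all genes were higher and 60.6% lower. Of 20 other islet factors 12 were higher and 2 lower, where 20.2% of all genes were higher and 24.7% lower. With deposited FPKM 19 were higher and 0 lower, where 86.2% and 6.97% of all genes were called. Prox1 (0.62), Mnx1 (0.43), Insm1 (0.41) and Meis2 (0.39) had the largest rises, and the lower ones were Hnf4a (-0.30) and Foxa3 (-0.42). Of 5 alpha, delta and PP cell factors 4 rose (5 with deposited FPKM), among them Irx1 (0.70) and Irx2 (0.57). The alpha cell list took 1.05 to 1.10% of summed FPKM in KO_REG3B-Fc and 0.448 to 0.466% in KO_PBS. The delta list took 0.326 to 0.327% in KO_REG3B-Fc and 0.115 to 0.127% in KO_PBS, and the PP list 0.477 to 0.500% in KO_REG3B-Fc and 0.196 to 0.210% in KO_PBS. Immune markers took 0.00975 to 0.0101% in KO_REG3B-Fc and 0.0272 to 0.0276% in KO_PBS, and stellate markers 0.00173 to 0.00186% in KO_REG3B-Fc and 0.00323 to 0.00327% in KO_PBS. Their part was not tested. Ptf1a (-1.85), Rbpjl (-1.78), Bhlha15 (-1.11) and Myc (-0.91) were among 9 of 12 progenitor, duct and acinar factors that fell, with Sox4 higher (7 lower and 3 higher with deposited FPKM). Sox9 fell as well (-0.74), at 0.61 and 0.59 FPKM in KO_REG3B-Fc and 1.08 and 1.24 FPKM in KO_PBS.

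Between KO_REG3B-Fc and CTR_PBS 1 of the 9 factors passed the threshold, and Mafa was not among them. Mafa had 70.5 and 62.7 FPKM in KO_REG3B-Fc, against 68.2 and 63.9 FPKM in CTR_PBS, and the groups overlapped. The change of -0.09 had a 95% interval of -0.23 to 0.05 (limma adjusted p = 0.394). Neurod1 was the 1 factor called: it had 35.9 and 36.7 FPKM in KO_REG3B-Fc and 41.7 and 40.9 FPKM in CTR_PBS, and fell by 0.28 (limma adjusted p = 0.00507), where 5.30% of genes were called lower and 5.47% higher. Without CTR_PBS replicate 1 its limma adjusted p was 0.0524 and no factor was called. On the deposited scale Pax6 (0.19), Isl1 (0.18) and Rfx6 (0.25) were called higher beside a lower Neurod1 (-0.18), with 16.8% of genes higher and 2.87% lower. The Mafa ratio to the pan-endocrine factors was 1.92 and 1.72 in KO_REG3B-Fc and 1.96 and 1.89 in CTR_PBS (log2 difference -0.08, two-sided exact permutation p = 0.667).

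Among known targets 5 of 18 rose and 2 fell, where 5.47% of all genes were called higher and 5.30% lower. Slc2a2 (0.29), Prlr (0.25), the imprinted gene Nnat (0.59), Trpm5 (0.19) and the prohormone convertase gene Pcsk1 (0.19) were higher, and G6pc2 (-0.33) and Ucn3 (-0.24) were lower. With deposited FPKM 8 were higher and 3 lower, where 16.8% of all genes were higher and 2.87% lower. Of 20 other islet factors Myt1 (0.27) and Prox1 (0.22) were higher and the corepressor gene Tle3 (-0.25) lower, counts near the 5.47% and 5.30% of all genes. With deposited FPKM 7 of the 20 were higher and 0 lower, where 16.8% and 2.87% of all genes were called. All 5 tested alpha, delta and PP cell factors were higher in KO_REG3B-Fc, Irx2 by 0.68 (limma adjusted p = 0.000601), and the median change of the 5 was 0.62. Irx2 was low, at 4.34 and 3.92 FPKM in KO_REG3B-Fc and 2.07 and 1.92 FPKM in CTR_PBS. The alpha cell list took 1.05 to 1.10% of summed FPKM in KO_REG3B-Fc and 0.509 to 0.524% in CTR_PBS, and the PP list took 0.477 to 0.500% in KO_REG3B-Fc and 0.212 to 0.219% in CTR_PBS. The delta list took 0.326 to 0.327% in KO_REG3B-Fc and 0.128 to 0.129% in CTR_PBS. Duct markers went the other way, at 0.0165 to 0.0170% in KO_REG3B-Fc and 0.0387 to 0.0417% in CTR_PBS. Their part was not tested. Of 12 progenitor, duct and acinar factors, Sox4 rose by 0.40 and Ptf1a fell by 0.74 (3 higher and 1 lower with deposited FPKM).

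Of the 5 comparisons, db_REG3B against db_GFP had the largest log2 change of Mafa, while the pan-endocrine factors changed by -0.26 to 0.15. Mafa had 395 and 399.9 FPKM in db_REG3B, against 133 and 126 FPKM in db_GFP. The mean was 3.08 times as high, and the log2 change 1.69 (SE 0.04, limma adjusted p = 7.83e-08). In db_REG3B Mafa had the highest FPKM of the 9 factors.

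Pdx1 had 159 and 175 FPKM in db_REG3B, against 123 and 121 FPKM in db_GFP, and rose by 0.52 (limma adjusted p = 4.48e-05). Nkx6-1 had 139 and 139 FPKM in db_REG3B, against 114 and 115 FPKM in db_GFP, and rose by 0.35 (limma adjusted p = 0.000178). For both, the libraries of the groups did not overlap, and on the median scale 36.8% of all genes were higher without overlap and 37.1% lower.

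Of the pan-endocrine factors Pax6 was higher and Isl1 and Rfx6 were lower. Pax6 had 93.1 and 94.9 FPKM in db_REG3B and 89.1 and 89.4 FPKM in db_GFP (0.15, limma adjusted p = 0.0126). That call was lost on the deposited scale (0.07, limma adjusted p = 0.187), and without db_GFP replicate 1 (limma adjusted p = 0.140) or db_GFP replicate 2 (0.105). Isl1 had 43.0 and 46.0 FPKM in db_REG3B and 53.9 and 52.4 FPKM in db_GFP (-0.18, limma adjusted p = 0.0108, or 0.0593 without db_GFP replicate 1). Rfx6 had 25.7 and 27.4 FPKM in db_REG3B and 33.7 and 33.6 FPKM in db_GFP and fell by 0.26 (limma adjusted p = 0.00235). Nkx2-2 (0.05), Neurod1 (0.09) and Foxa2 (0.02) were not called. Neurod1 had 97.1 and 88.2 FPKM in db_REG3B and 93.6 and 89.4 FPKM in db_GFP, and without db_REG3B replicate 2 it was called higher (0.18, limma adjusted p = 0.0191).

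In all, 4 of 9 were called higher and 2 lower, where 20.7% of 12507 genes were higher and 25.6% lower. On the deposited scale 3 were higher and 2 lower, with 12.2% and 30.8% of genes, and in the authors' deposited results 4 of the factors were higher and 1 lower, with 12.3% and 15.1%. The 2 lower factors are close to the background share of lower genes.

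The Mafa ratio to the 6 pan-endocrine factors was 6.82 and 6.69 in db_REG3B and 2.09 and 2.01 in db_GFP, a 3.27-fold difference (two-sided exact permutation p = 0.333, the smallest possible). Divided by the pan-endocrine mean, Mafa (1.71, limma adjusted p = 1.24e-07), Pdx1 (0.54, 4.48e-05) and Nkx6-1 (0.38, 0.000188) were all called higher, with 23.7% of genes higher and 24.0% lower. The pan-endocrine mean itself was 57.9 and 59.8 FPKM in db_REG3B and 63.4 and 62.5 FPKM in db_GFP.

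**Figure D4:**
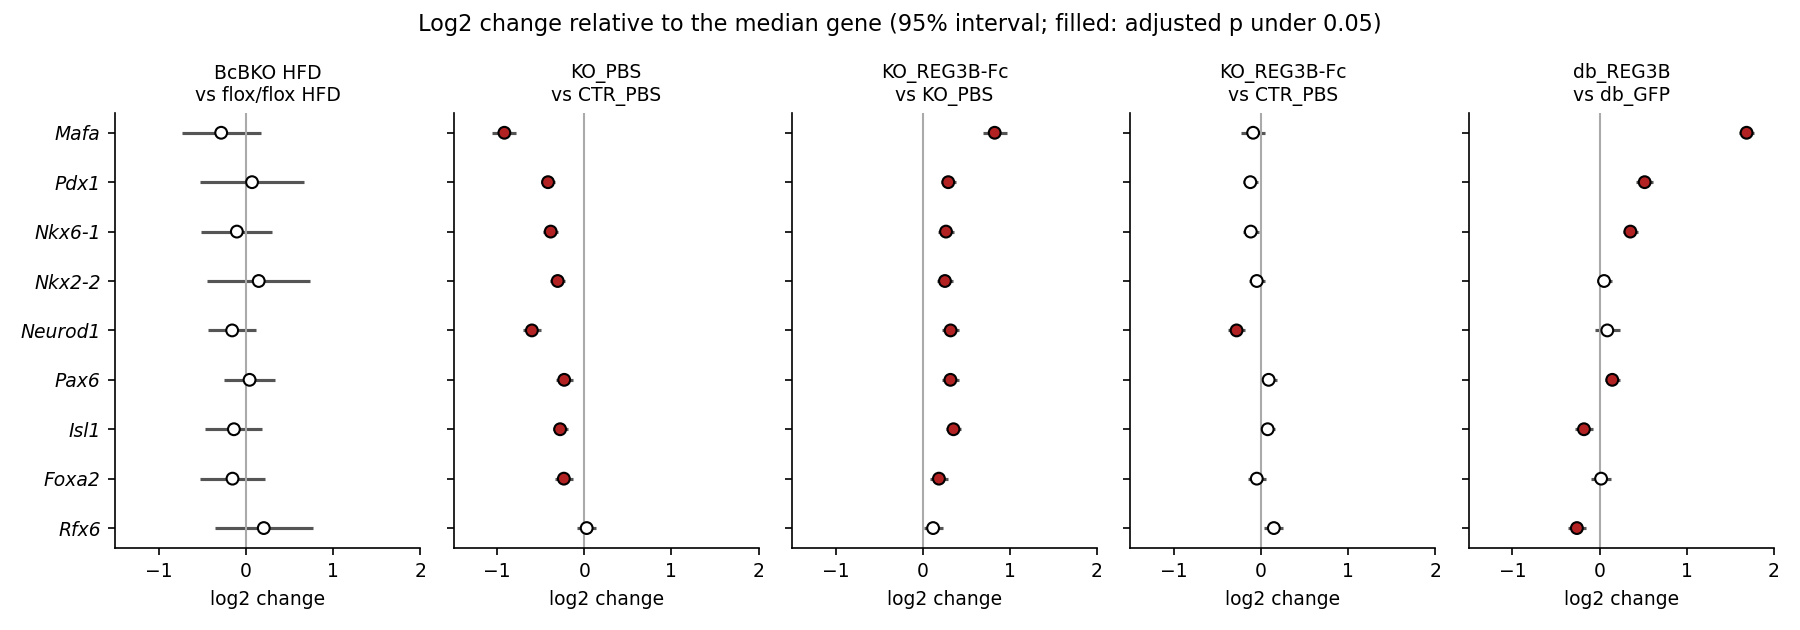
Log2 change relative to the median gene (points) with 95% interval (lines) for each factor in the 5 comparisons; filled points passed limma's adjusted p of 0.05. In db_REG3B against db_GFP Mafa lies at 1.69 and the 6 pan-endocrine factors between -0.26 and 0.15, while in the HFD comparison all 9 intervals include 0.

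Known targets were mostly higher in db_REG3B: 15 of 18 were higher and 0 lower, with a median of 0.85 against 0.01 for all genes. On the same median scale 20.7% of all genes were called higher and 25.6% lower. Slc2a2 had 135 and 140.1 FPKM in db_REG3B, against 49.1 and 49.2 FPKM in db_GFP, and rose by 1.54 (limma adjusted p = 9.41e-08). Trpm5 rose by 1.65, and the insulin genes Ins1 (1.08) and Ins2 (1.06) rose together. Iapp (0.09) and Nnat (-0.09) were among the 3 that did not pass.

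Of 20 other islet factors 5 were higher and 5 lower, close to the 20.7% and 25.6% of all genes (5 and 9 on the deposited scale, where 12.2% and 30.8% of all genes were called). Scrt1 (0.70), the glucose-responsive factor gene Mlxipl (0.43) and Insm1 (0.38) rose, as did Tle3 (0.30). Foxa3 (-0.35), Hnf4a (-0.23), Esrrg (-0.22) and Prox1 (-0.19) fell. All 6 tested alpha, delta and PP cell factors fell (median -0.62). The alpha cell genes Irx1 (-0.65, limma adjusted p = 0.000144) and Irx2 (-0.64, limma adjusted p = 0.000267) were among them. Progenitor, duct and acinar factors were lower in 5 of 8 and higher in 1, Bhlha15 (0.55). Bhlha15 had 40.65 and 45.36 FPKM in db_REG3B and 31.37 and 29.85 FPKM in db_GFP, although the acinar share given below was low in both groups. Sox4 changed by -1.30, the endocrine progenitor factor Neurog3 by -1.17, Hes1 by -0.77 and Gata6 by -0.76. The duct factor Sox9 changed by -1.55 at low levels, with 0.50 and 0.45 FPKM in db_REG3B and 3.54 and 3.35 FPKM in db_GFP.

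Marker shares of other cell types differed as well. The alpha list took 1.91 and 1.88% of summed FPKM in db_REG3B and 4.47 and 4.51% in db_GFP, the PP list 2.07 to 2.13% in db_REG3B and 4.49 to 4.50% in db_GFP, and the beta list 59.4 and 59.7% in db_REG3B and 40.6 and 40.7% in db_GFP. Duct markers took 0.0511 to 0.0529% in db_REG3B and 0.149 to 0.150% in db_GFP, with 4 of 5 at 1 FPKM or more. Stellate markers, all 5 at 1 FPKM or more, took 0.0187 to 0.0193% in db_REG3B and 0.134 to 0.137% in db_GFP. Immune markers took 0.0214 to 0.0216% in db_REG3B and 0.0579% in both db_GFP libraries, and endothelial markers 0.00287 to 0.00300% in db_REG3B and 0.00713 to 0.00733% in db_GFP. Acinar markers were low in both, at 0.0421 to 0.0425% in db_REG3B and 0.0897 to 0.0920% in db_GFP. The part of these cell types in the changes above was not tested. All genes of the beta list are also among the known targets, so its share is not a separate measure of beta cell content. In db_GFP Ins2 alone averaged 249000 FPKM, where the beta list summed to 379000 and 384500 FPKM.

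On HFD no factor differed past the threshold between islets labelled BcBKO and flox/flox islets. Mafa had 72.6 and 64.3 FPKM in libraries labelled BcBKO, against 93.2 and 65.7 FPKM in flox/flox. Its log2 change was -0.28 with a 95% interval of -0.74 to 0.17 (limma adjusted p = 1.00). Since Smarcd3 was not called lower in these libraries, directions are given for the labels only.

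Replicate spread was wide in this table. Pdx1 had 61.2 and 46.1 FPKM in libraries labelled BcBKO and 59.1 and 38.0 FPKM in flox/flox. Rfx6 had 66.6 and 45.9 FPKM in libraries labelled BcBKO and 52.2 and 38.5 FPKM in flox/flox, and Nkx2-2 had 96.8 and 69.5 FPKM in libraries labelled BcBKO and 84.3 and 57.2 FPKM in flox/flox. In each of the 3 genes the libraries of a group differed by more than the group means. Part of that spread was shared by libraries of the same replicate number. With this number as a block in the fit, the SE fell from 0.234 to 0.081 for Pdx1. It fell from 0.219 to 0.078 for Rfx6 and from 0.232 to 0.073 for Nkx2-2. None of the 3 was called (limma adjusted p = 0.780, 0.403 and 0.498), and the labels do not say that replicate numbers pair samples. Pax6 varied less within a group, at 155 and 150.5 FPKM in libraries labelled BcBKO and 142 and 137 FPKM in flox/flox (0.04). Nkx6-1 (-0.10), Neurod1 (-0.16), Isl1 (-0.14) and Foxa2 (-0.15) had intervals that include 0.

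With limma, 0 of 9 factors were called, and of all 11560 genes 1 was called, higher (0.00865%). At an unadjusted p under 0.05 there were 295 genes (2.55%) and 0 factors, and the authors' deposited table has 21 called genes (0.164%) and 0 factors. On the median scale Mafa and Neurod1 were lower and Pax6 higher in libraries labelled BcBKO without overlap, as were 13.8% (lower) and 13.6% (higher) of all genes. The Mafa ratio to the pan-endocrine factors was 1.01 and 1.08 in libraries labelled BcBKO and 1.36 and 1.18 in flox/flox (log2 difference -0.27, two-sided exact permutation p = 0.333, the smallest possible). In limma on the pan-endocrine scale it was not called (-0.27, adjusted p = 1.00). None of the 18 known targets, 20 other islet factors, 5 alpha, delta and PP factors or 8 progenitor, duct and acinar factors was called. Among the smallest p-values in each list were those of Glp1r (0.28) and Sytl4 (-0.25), Myt1 (0.26) and Hnf4a (0.26), Irx1 (-0.31), and Neurog3 (0.53) and Bhlha15 (-0.40), all with limma adjusted p = 1.00. The acinar share was 2.87 and 2.87% in libraries labelled BcBKO and 1.88 and 6.89% in flox/flox.

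The 5 WT libraries have no other group in their table and are described without a test. Mafa ranged from 28.2 to 58.4 FPKM (42.9 ± 13.9, SD, n = 5) and Pdx1 from 24.1 to 40.3 FPKM (31.0 ± 6.38, SD, n = 5). Neurod1 and Rfx6 had the widest ranges on the log2 scale. Neurod1 ranged from 14.4 to 78.8 FPKM with a median of 21.5, and Rfx6 from 7.41 to 37.2 FPKM with a median of 10.3. Isl1 ranged from 13.7 to 47.9 FPKM, Nkx2-2 from 12.7 to 47.6, Pax6 from 19.3 to 56.7, Foxa2 from 14.5 to 31.7 and Nkx6-1 from 35.5 to 89.2 FPKM. By mean the order ran from Nkx6-1 and Mafa at the top to Foxa2 and Rfx6 at the bottom, and every neighbouring pair overlapped in range.

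The pan-endocrine mean was 19.3, 13.6 and 13.2 FPKM in WT replicates 1 to 3 and 43.9 and 43.0 FPKM in replicates 4 and 5. Mafa did not follow that division: it had 58.4, 30.3 and 28.2 FPKM in replicates 1 to 3 and 42.0 and 55.4 FPKM in replicates 4 and 5. The ratio of Mafa to the pan-endocrine mean was 3.03, 2.24 and 2.13 in replicates 1 to 3 and 0.957 and 1.29 in replicates 4 and 5, and that of Pdx1 was 1.78, 1.78 and 2.08 against 0.656 and 0.937. The acinar share was 30.7, 40.1 and 42.1% in replicates 1 to 3 and 4.77 and 25.5% in replicates 4 and 5. Lines without a value were 0 in replicates 1 to 3, 240 in replicate 4 and 104 in replicate 5. The part of either in the division was not tested.

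Over all 19 libraries, log2(FPKM + 1) of the deposited FPKM was centred on each table without median scaling, so library scale enters these values. Neurod1 (SD 0.61) and Mafa (0.60) varied most and Foxa2 least (0.31). The spread came from different places: Neurod1 spanned 2.37 log2 units in WT and 0.14 in the db table, while Mafa spanned 1.03 in WT and 1.66 in the db table. Among the 3379 genes with a mean of at least 10 FPKM in each table, the 5 whose centred values lay nearest to Mafa were Lrrc10b, Pfkfb2, Prss53, Insrr and Hs3st6, with root mean square differences of 0.24 to 0.26 log2 units, against 0.50 for the median gene. Pfkfb2 encodes an enzyme that controls glycolysis, Insrr a receptor related to the insulin receptor, Prss53 a serine protease and Hs3st6 a heparan sulfate sulfotransferase. Pdx1 (0.34) and Nkx6-1 (0.38) were nearer to Mafa than the pan-endocrine factors, which lay at 0.45 (Foxa2) to 0.65 (Rfx6).

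On the median scale Lrrc10b, the nearest gene, changed by -0.85 in KO_PBS against CTR_PBS, by 0.75 in KO_REG3B-Fc against KO_PBS and by 0.84 in db_REG3B against db_GFP. Prss53 changed by -0.56, 0.52 and 1.28 in the same order. These 5 genes were found by their likeness in these libraries, so their changes are descriptions. The genes nearest to Foxa2, the steadiest factor, were Dpp9, Zmiz2, Srrm1, Cuta and Scamp2, at 0.06 to 0.07 log2 units, against 0.21 for the median gene.

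**Figure D5:**
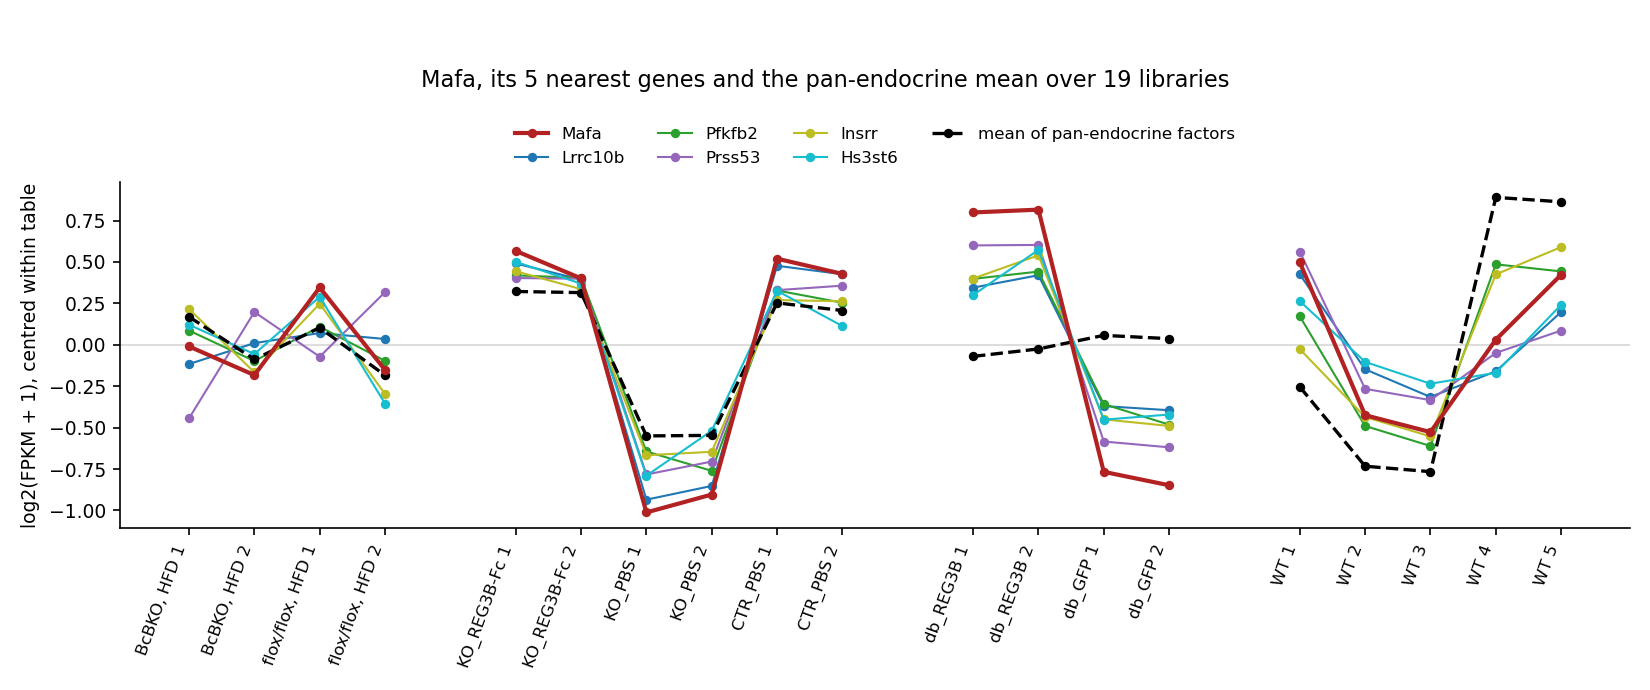
Log2(FPKM + 1), centred on the mean of each table, in each of 19 libraries for Mafa (thick red), its 5 nearest genes (thin lines) and the mean of the pan-endocrine factors (dashed black). Values are deposited FPKM, not median scaled, so library scale enters every line. Mafa and the dashed line are both lowest of the PBS libraries in KO_PBS, with Mafa at -1.01 and -0.90 and the dashed line at -0.55 and -0.55. They part in the db libraries, where Mafa spans 1.66 log2 units, and in WT.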

How the data were processed

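Mouse islet messenger RNA was read from both ends on a BGISEQ-500, per the labels. The authors deposited FPKM for 19 libraries in 4 tables and TPM as well for the HFD libraries; the genome build is GRCm38.p6 per the submitters' processing notes, and the aligner and counting program are not given in the sources used here. Their deposited columns for 4 comparisons hold a log2 fold change, a p-value and its adjusted form, computed by the authors with DESeq2 for the PBS and db libraries per the file headers. Read counts were not analysed here, so sequencing depth is unknown and no counting interval was computed. For WT, 275 lines without a value and 27 with a repeated identifier were left out.

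Libraries were scaled by the median ratio to the geometric mean library of their table. Genes reaching 1 FPKM in 2 or more libraries were tested on log2(FPKM + 1) by limma 3.58.1 (R 4.3.3; trended empirical Bayes, two-sided), all groups of a table in 1 fit, Benjamini-Hochberg over all genes tested and a threshold of 0.05. The fit was tested on simulated data. The pseudocount understates changes of genes at low FPKM. Ratios to the pan-endocrine factors were computed in Python 3.11.15 with numpy 2.4.6 and compared by exact permutation over libraries.

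The 9 factors and all gene lists were chosen with earlier results of these data known. Named genes were the 9 factors and, from each list and comparison, up to 4 called genes with the largest change and at least 5 FPKM in the higher group, or, with none called, up to 2 of the smallest p, and the 5 genes nearest to Mafa and to the steadiest factor; other list genes given with values outside that rule were added after their values were seen. A few genes of the lists are counted but not reported here by name. Of the 9 factors 8 matched the RefSeq promoter table. Alternatives were deposited FPKM, scaling to the pan-endocrine factors, a pseudocount of 0.1, no filter, leaving out each library, the replicate number as a block, only the libraries of the groups compared, and TPM.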

Additional observations from a re-analysis of the deposited data

How the results depend on the processing

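Of the log2 changes of single factors recomputed under other settings, 455 kept their direction and side of the threshold, 13 lost the call, 6 gained it and 21 changed sign; the cause was not tested except where the scale itself moves every gene. Counts of all genes called were 5262 in KO_PBS against CTR_PBS (10624 with deposited FPKM), 5293 in KO_REG3B-Fc against KO_PBS (10979) and 1270 in KO_REG3B-Fc against CTR_PBS (2315 with deposited FPKM, 828 with no filter, and 463 without CTR_PBS replicate 1 to 1453 without KO_PBS replicate 1). In the HFD comparison the 1 gene called became 0 with no filter, 0 with TPM and 0 to 1 when a library was left out. Factors called numbered 4 in KO_PBS against CTR_PBS and 2 in KO_REG3B-Fc against KO_PBS relative to the pan-endocrine factors, against 8 each on the median scale, and in KO_REG3B-Fc against CTR_PBS 4 with deposited FPKM and 0 to 1 when a library was left out, against 1.

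Signs turned under some scales, also for factors called after median scaling. With deposited FPKM Rfx6 read -0.477 in KO_PBS against CTR_PBS, Mafa 0.010, Nkx2-2 0.051 and Foxa2 0.051 in KO_REG3B-Fc against CTR_PBS, and Nkx2-2 -0.020 and Foxa2 -0.054 in db_REG3B against db_GFP. Relative to the pan-endocrine factors Pax6 read 0.041 and Foxa2 0.036 in KO_PBS against CTR_PBS (-0.231 and -0.235 after median scaling), and Nkx2-2 -0.004, Foxa2 -0.073 and Rfx6 -0.138 in KO_REG3B-Fc against KO_PBS (0.255, 0.186 and 0.119); these factors are part of the mean that the scale divides by. The Rfx6 values of -0.477 and -0.138 passed the threshold. When each library was left out in turn, the HFD changes ran from -0.206 to 0.347 for Pdx1, -0.256 to 0.050 for Nkx6-1, -0.092 to 0.387 for Nkx2-2 and -0.040 to 0.457 for Rfx6; Rfx6 ran from -0.024 to 0.075 in KO_PBS against CTR_PBS, and in db_REG3B against db_GFP Neurod1 ran from -0.001 to 0.180 and Foxa2 from -0.038 to 0.074. Mafa minus the pan-endocrine factors in KO_REG3B-Fc against CTR_PBS read 0.043 with the median of the 6 factors and -0.158 to 0.000 when a library was left out. Mafa itself ran from -0.98 to -0.844 in KO_PBS against CTR_PBS, 0.754 to 0.894 in KO_REG3B-Fc against KO_PBS and 1.635 to 1.709 in db_REG3B against db_GFP.

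The labels do not say that replicate numbers pair samples, and the correlation of same-numbered deviations was 0.670 in the HFD table and -0.0508 to 0.0470 elsewhere. With the replicate number as a block, the factors called numbered 0, 8, 8, 1 and 6 in the order HFD, KO_PBS against CTR_PBS, KO_REG3B-Fc against KO_PBS, KO_REG3B-Fc against CTR_PBS and db, as without it, and the HFD count of all genes was 4. With 2 pooled libraries a group and no depth in the files, small changes are not resolved, most of all in the HFD table.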
